A study of Rattus norvegicus with 12 samples.

Results

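The genes described here encode 10 liver enzymes that break down amino acids other than the branched-chain and aromatic ones: Prodh (proline), Oat (ornithine), Gls2 (glutamine), Glud1 (glutamate), Gpt (alanine), Got1 (aspartate), Hal (histidine), Sds (serine), Agxt (alanine and glyoxylate) and Gldc (glycine). They are a fixed list of symbols, chosen with earlier results of these data known. Each gene was read from every probe set annotated with that single symbol. Each of the 10 genes had 1 probe set, so the group holds 10 of the 15310 probe sets with a single symbol. Signals come from livers of male rats of the Diet-induced obese Sprague-Dawley strain, 20 weeks old, that had eaten a high fat, high sucrose diet without restriction for 8 weeks, from the age of 12 weeks. Protein gave 10% of energy in every diet and the energy density was 4.6 kcal per gram. The protein was casein in the control group, skim milk powder in the dairy group, and casein at 7.1% plus free leucine at 2.9% of energy in the leucine group. There were 4 arrays per diet, read here as 1 rat each, although the labels do not say so, and the p-values measure only the spread between these samples. Casein made up less of the leucine diet than of the control diet, so added leucine and less casein cannot be told apart. The same holds for milk protein and whatever else skim milk powder brings.

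Amino acids that the liver does not need for protein are stripped of their nitrogen, which becomes urea, and their carbon goes to glucose, ketone bodies or carbon dioxide. Much of the nitrogen passes through glutamate: aminotransferases move amino groups onto it, glutaminase and the proline and ornithine routes produce it, and glutamate dehydrogenase releases its ammonia. Histidine and serine can lose their nitrogen directly, through a lyase and a dehydratase. Many of these enzymes are known to be induced in liver by high protein intake, glucagon and glucocorticoids, and several are concentrated in hepatocytes around the portal vein.

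As a check of the tissue, 12 of 13 hepatocyte markers were measured, all above the dimmest 25% of probe sets, and albumin (Alb) had the highest mean signal of all 15310 probe sets. Array values were log2 signals between 1.06 and 14.37. The SD over all probe sets of an array lay between 2.07 and 2.33, with dairy replicate 3 and casein replicate 4 the narrowest. Mean signals of the 10 enzymes lay between the 76.0th (Sds) and the 98.4th (Glud1) percentile of all probe sets. No level is compared between genes below, because probe sets differ in how strongly they bind.

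Livers of dairy-fed rats had a lower mean signal than livers of casein-fed rats for all 10 enzymes, where 53.1% of all probe sets were lower. For 7 of the 10 (Prodh, Oat, Gls2, Gpt, Got1, Hal and Sds) the difference had an unadjusted p under 0.05 in limma, against 6.32% of all probe sets called lower by that rule. None of the 10 passed the threshold of 0.05 after Benjamini-Hochberg adjustment over all 15310 probe sets, which 0.0849% of probe sets did. With array weights, 5 of the 10 passed (Prodh, Oat, Gls2, Gpt and Hal), beside 7.72% of all probe sets. That alternative gave dairy replicate 3 and casein replicate 4 little weight (0.296 and 0.293). It gave the most weight, 2.83, to dairy replicate 2, which was among the 3 lowest of 12 arrays for 10 of the 10 enzymes. A moderated F test over the 3 diets called none of the 10 (lowest adjusted p = 0.156, for Gpt) and 0.0327% of all probe sets. The median difference of the 10 was -1.05 on the log2 scale, beside -0.02 over all probe sets. For 5 of the 10 the 4 dairy values all lay below the 4 casein values, against 2.18% of all probe sets. The enzymes were chosen with earlier results of these data known, so their counts beside the shares of all probe sets are a description only. The 3 remaining enzymes, Glud1, Agxt and Gldc, had 95% intervals that span 0. Fewer cells that express a gene and less RNA per cell cannot be told apart in whole liver.

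**Figure D1:**
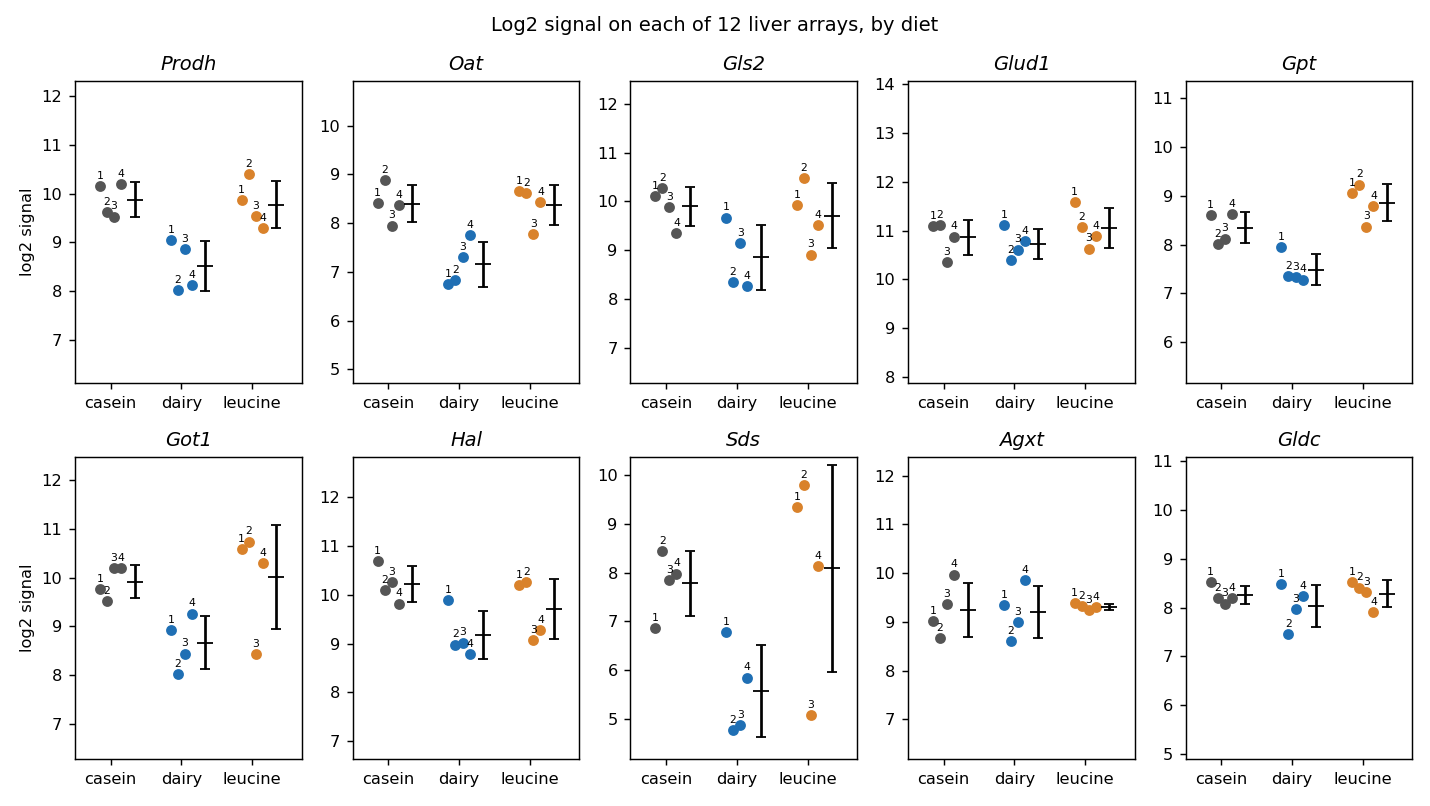
Log2 signal (vertical axis, every panel spanning the same number of log2 units) of the 10 enzymes on each of 12 arrays, by diet; points carry the replicate number, and black marks give the mean and SD of 4 arrays. The dairy arrays lie below all casein arrays for Prodh, Oat, Gpt, Got1 and Sds, and leucine replicate 3 lies at dairy levels for Sds (5.08) and Got1 (8.43).

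Proline is oxidised in mitochondria by proline dehydrogenase, encoded by Prodh. Prodh signals were 10.16, 9.62, 9.53 and 10.20 with casein, 9.05, 8.02, 8.86 and 8.13 with dairy, and 9.87, 10.40, 9.54 and 9.30 with leucine. Every dairy value lay below every value of the other 2 diets, which overlapped each other. The means were 9.88 ± 0.354 with casein and 8.51 ± 0.515 with dairy (SD, n = 4 per diet), a 2.58-fold lower signal with dairy. The log2 difference was -1.36 ± 0.291 (SE), with a limma adjusted p = 0.112 and an unadjusted p = 4.79e-04.

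Ornithine aminotransferase, encoded by Oat, turns ornithine into an intermediate that it shares with proline breakdown on the way to glutamate. Oat signals were 8.41, 8.88, 7.95 and 8.37 with casein, 6.75, 6.83, 7.30 and 7.75 with dairy, and 8.65, 8.62, 7.78 and 8.43 with leucine. The highest dairy value, 7.75, lay just below the lowest of the other diets, 7.78, so the groups did not overlap. Oat was 2.36-fold lower with dairy than with casein (log2 difference -1.24 ± 0.271 SE, limma adjusted p = 0.124).

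Gls2 encodes the liver form of glutaminase, which frees ammonia from glutamine in periportal hepatocytes. Its signals were 10.11, 10.27, 9.88 and 9.35 with casein, 9.67, 8.35, 9.14 and 8.26 with dairy, and 9.92, 10.48, 8.91 and 9.52 with leucine. Dairy replicate 1, at 9.67, lay above casein replicate 4, and the other 3 dairy values lay below all casein values. The log2 difference between dairy and casein was -1.05 ± 0.371 (SE, limma adjusted p = 0.355), a 2.07-fold lower signal.

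Glud1, which encodes glutamate dehydrogenase, differed little. It ranged from 10.35 to 11.12 with casein, from 10.40 to 11.12 with dairy and from 10.63 to 11.59 with leucine, with full overlap of dairy and casein. The difference between dairy and casein was -0.13 (95% interval -0.65 to 0.39), so a lower signal of the size seen for Prodh or Oat lies outside that interval.

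Gpt encodes alanine aminotransferase, the cytosolic enzyme also measured in serum as ALT. Its signals were 8.61, 8.01, 8.12 and 8.63 with casein, 7.95, 7.36, 7.33 and 7.28 with dairy, and 9.05, 9.23, 8.37 and 8.79 with leucine. All dairy values lay below all casein and leucine values, with dairy replicate 1 (7.95) close to the lowest casein value (8.01). Gpt was 1.82-fold lower with dairy than with casein (log2 difference -0.87 ± 0.228 SE, limma adjusted p = 0.227).

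Got1 encodes the cytosolic aspartate aminotransferase, which links amino acid nitrogen to the malate-aspartate shuttle. Its signals were 9.76, 9.51, 10.20 and 10.20 with casein, 8.93, 8.02, 8.44 and 9.26 with dairy, and 10.58, 10.74, 8.43 and 10.30 with leucine. Dairy lay below casein on every array, while leucine replicate 3 lay within the dairy range and the other 3 leucine values lay above all casein values. Got1 was 2.39-fold lower with dairy than with casein (log2 difference -1.25 ± 0.446 SE, limma adjusted p = 0.358).

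Agxt, the peroxisomal and mitochondrial enzyme that passes amino groups from alanine to glyoxylate, had overlapping signals in all 3 diets. It ranged from 8.67 to 9.97 with casein, from 8.61 to 9.86 with dairy and from 9.24 to 9.38 with leucine. The difference between dairy and casein was -0.04 (95% interval -0.67 to 0.58), and its sign turned to 0.05 under quantile normalization.

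Hal encodes histidine ammonia-lyase, which starts histidine breakdown. Its signals were 10.69, 10.10, 10.27 and 9.82 with casein, 9.90, 8.98, 9.02 and 8.78 with dairy, and 10.20, 10.26, 9.08 and 9.28 with leucine. Dairy replicate 1 (9.90) lay just above the lowest casein value (9.82), and the leucine values spread over both ranges. Hal was 2.07-fold lower with dairy than with casein (log2 difference -1.05 ± 0.319 SE, limma adjusted p = 0.301).

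Sds encodes serine dehydratase, which turns serine into pyruvate and ammonia and feeds gluconeogenesis. Its signals were 6.86, 8.45, 7.85 and 7.98 with casein, 6.78, 4.77, 4.88 and 5.85 with dairy, and 9.35, 9.79, 5.08 and 8.14 with leucine. All dairy values lay below all casein values, but dairy replicate 1 (6.78) came close to casein replicate 1 (6.86). Sds was 4.63-fold lower with dairy than with casein (log2 difference -2.21 ± 0.846 SE, limma adjusted p = 0.384), and only 2 of the 15310 probe sets had a lower difference. Its spread between arrays was also the widest of the 10 enzymes in every diet. The SD was 0.671 with casein, 0.943 with dairy and 2.12 with leucine.

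Gldc encodes the decarboxylase of the glycine cleavage system of mitochondria. It ranged from 8.08 to 8.52 with casein, from 7.46 to 8.48 with dairy and from 7.90 to 8.53 with leucine, and the groups overlapped. The difference between dairy and casein was -0.21 (95% interval -0.68 to 0.25).

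With leucine the enzymes had no common direction. Against casein, 4 of the 10 had a lower mean (56.2% of all probe sets did) and 6 a higher one, with a median difference of 0.05 beside -0.03 over all probe sets. Gpt was the only one with an unadjusted p under 0.05 (limma adjusted p = 0.999), and 1.39% of all probe sets were called higher by that rule. Its mean was 8.86 ± 0.372 with leucine and 8.35 ± 0.323 with casein (SD, n = 4), a 1.43-fold higher signal, and the groups overlapped. The unadjusted p of Gpt was over 0.05 with quantile normalization, with trend and robust eBayes, and without casein replicate 2 or 3, dairy replicate 2, or leucine replicate 1, 2 or 4. With the replicate number as a block, Hal was also under 0.05 (log2 difference -0.52 ± 0.216 SE, limma adjusted p = 0.999). limma called 0 of all probe sets between these diets after adjustment, and 507 at an unadjusted p under 0.05 (3.31%). The 95% intervals were -0.73 to 0.53 for Prodh, -0.62 to 0.56 for Oat, -1.21 to 0.18 for Hal and -1.53 to 2.15 for Sds. For Sds and Got1 the result depends on single leucine arrays. Without leucine replicate 3 the differences from casein were 1.31 and 0.62, in place of 0.31 and 0.09. Sds then had an unadjusted p = 0.0326 in limma and did not pass after adjustment. Without leucine replicate 2 the differences were -0.26 and -0.15, and without leucine replicate 1 they were -0.11 and -0.0964.

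Dairy and leucine were also set against each other, using the same dairy and leucine arrays as above. All 10 enzymes had a lower mean with dairy, as 48% of all probe sets did, and 6 of the 10 an unadjusted p under 0.05 (Prodh, Oat, Gls2, Gpt, Got1 and Sds), against 3.65% of all probe sets called lower. The count was 5 to 7 under the alternatives tried, beside 2.05% to 6.32% of all probe sets called lower. Gls2 lost its call with quantile normalization, with only the 8 arrays, and without dairy replicate 2 or 4 or leucine replicate 1 or 2. No probe set passed after adjustment in limma, and 1064 (6.95%) had an unadjusted p under 0.05. Gpt had the smallest p of all 15310 probe sets in this comparison (limma adjusted p = 0.604), with a 2.61-fold lower signal with dairy (log2 difference -1.38 ± 0.228 SE). Its rank lay between 1 and 12 under the alternatives tried. Prodh differed by -1.26 ± 0.291 and Oat by -1.21 ± 0.271 (SE). For these 3 enzymes every dairy value lay below every leucine value, against 2.04% of all probe sets. Sds had the lowest difference of all probe sets, -2.52 ± 0.846 (SE), with 1 overlapping leucine array, replicate 3. Without that array the difference was -3.52 for Sds and -1.88 for Got1, in place of -2.52 and -1.35. Hal differed by -0.53 ± 0.319 (SE, 95% interval -1.23 to 0.16), and its mean with leucine lay between those of the other diets.

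**Figure D2:**
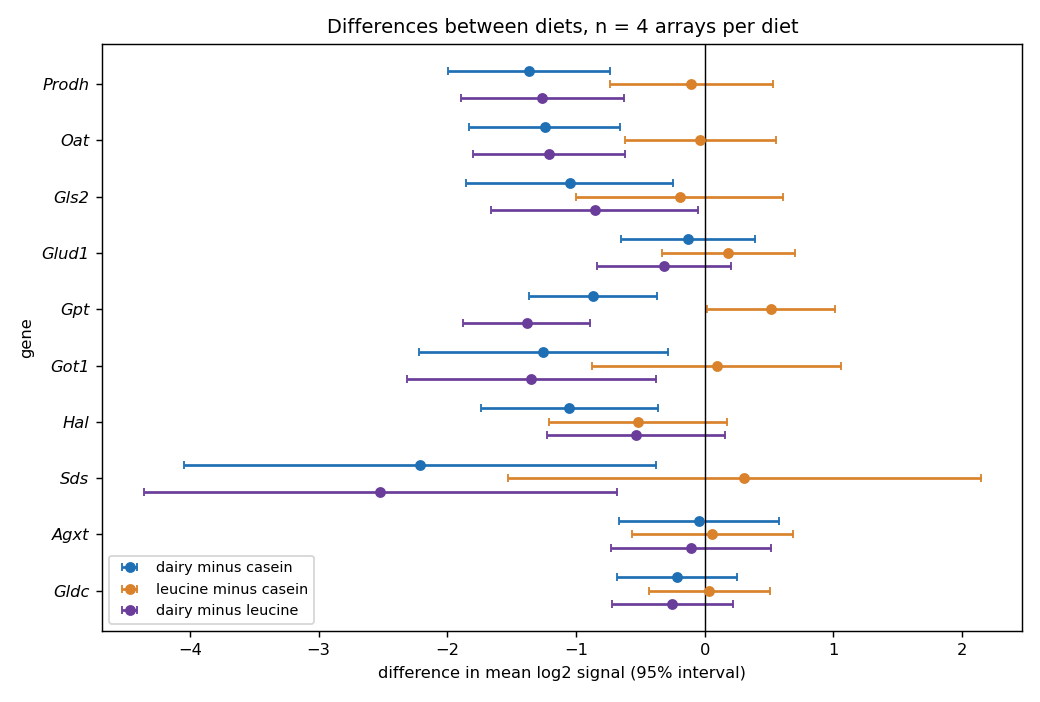
Difference in mean log2 signal (horizontal axis) with its 95% interval from limma for each enzyme and each pair of diets, n = 4 arrays per diet. The intervals of dairy minus casein lie wholly below 0 for Prodh, Oat, Gls2, Gpt, Got1, Hal and Sds, while those of Glud1, Agxt and Gldc span 0; the comparisons share arrays, so they are not independent.

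The arrays of 1 diet did not behave alike. Dairy replicate 2 was among the 3 lowest of all 12 arrays for 10 of the 10 enzymes and was the lowest of all for 5, with a median of -1.39 against the casein mean. Dairy replicate 3 was among the 3 lowest for 9 enzymes (median -1.02), dairy replicate 4 for 4 (median -0.86) and dairy replicate 1 for 1 (median -0.36). Dairy replicate 1 was thus the nearest of its diet to casein, although its Oat signal was the lowest of all 12 arrays. Leucine replicate 2 had the highest signal of all arrays for 5 enzymes, and leucine replicate 3 lay below the casein mean for 8 of 10. Dairy replicate 3 has the narrowest spread of all arrays. Without it and casein replicate 4, the other narrow array, 9 of 10 enzymes remained lower with dairy, and 5 had an unadjusted p under 0.05, beside 9.82% of all probe sets called lower.

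**Figure D3:**
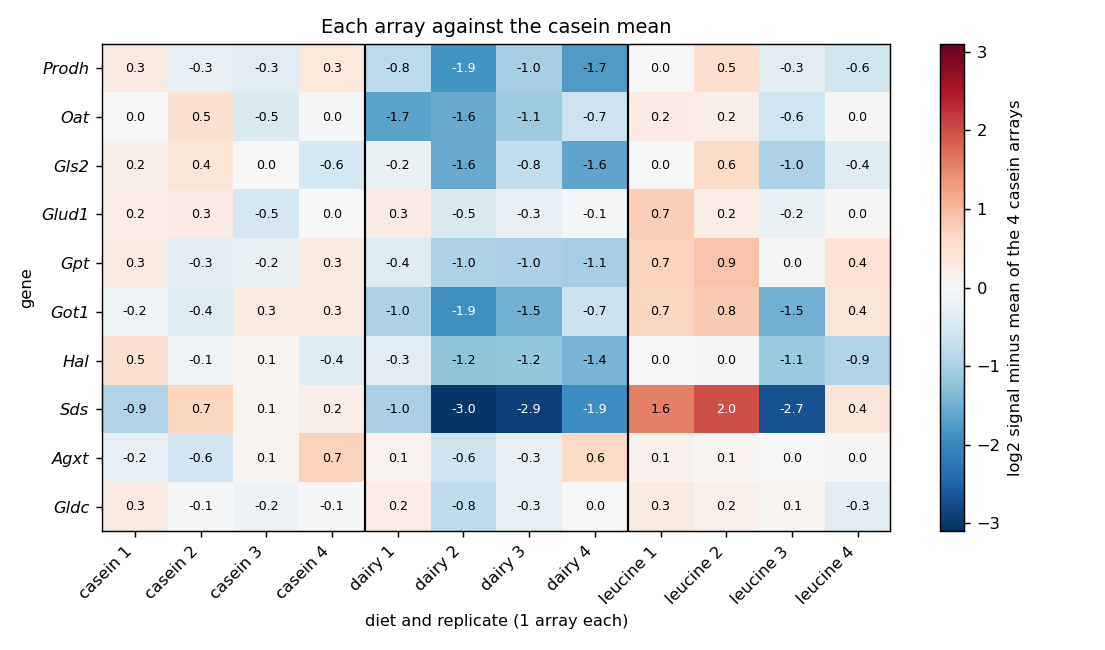
Log2 signal of each enzyme on each of 12 arrays minus the mean of the 4 casein arrays (colour and printed number, log2 units), with columns grouped by diet. Dairy replicates 2, 3 and 4 are blue for most enzymes, dairy replicate 1 less so, and leucine replicate 3 is blue for Sds, Got1, Gls2 and Hal.

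The stretch before the gene start is shown for 4 enzymes, to set 3 that were lower with dairy (Oat, Gls2 and Got1) beside 1 whose interval spanned 0 (Glud1). RefSeq promoter windows on GRCr8 were at hand for 6 of the 10 genes by symbol (Oat, Gldc, Got1, Gls2, Agxt and Glud1). Each line gives the 250 bases before an annotated start, 5′ to 3′ on the gene's strand. Capitals mark GC boxes (GGGCGG) and CCAAT boxes (CCAAT) on either strand, 2 common promoter elements, and joined boxes run together. The windows are Oat at chr1:196797755-196798004 (minus strand), Got1 at chr1:252329872-252330121 (minus strand), Gls2 at chr7:1201629-1201878 (plus strand, 1 of 2 windows) and Glud1 at chr16:9646319-9646568 (plus strand).
Oat: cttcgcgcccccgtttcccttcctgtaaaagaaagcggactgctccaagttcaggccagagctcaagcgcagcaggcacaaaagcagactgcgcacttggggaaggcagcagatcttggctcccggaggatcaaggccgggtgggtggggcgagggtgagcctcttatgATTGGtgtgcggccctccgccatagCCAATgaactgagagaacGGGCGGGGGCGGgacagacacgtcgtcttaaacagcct
Got1: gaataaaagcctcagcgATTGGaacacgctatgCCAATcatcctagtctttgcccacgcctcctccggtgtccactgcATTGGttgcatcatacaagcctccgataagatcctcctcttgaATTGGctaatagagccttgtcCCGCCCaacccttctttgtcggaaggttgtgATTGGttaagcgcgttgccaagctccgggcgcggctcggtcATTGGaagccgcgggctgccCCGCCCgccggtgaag
Gls2: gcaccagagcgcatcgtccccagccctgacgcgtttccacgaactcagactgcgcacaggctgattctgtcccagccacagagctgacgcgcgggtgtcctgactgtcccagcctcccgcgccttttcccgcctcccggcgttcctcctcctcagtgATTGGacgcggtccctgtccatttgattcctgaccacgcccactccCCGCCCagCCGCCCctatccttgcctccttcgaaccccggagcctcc
Glud1: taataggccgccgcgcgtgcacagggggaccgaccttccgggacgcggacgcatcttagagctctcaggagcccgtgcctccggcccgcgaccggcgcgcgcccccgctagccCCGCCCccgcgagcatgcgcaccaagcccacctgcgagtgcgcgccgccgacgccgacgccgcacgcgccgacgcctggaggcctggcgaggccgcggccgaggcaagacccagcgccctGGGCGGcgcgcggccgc
The 6 genes have 8 windows in all, since Gls2 and Agxt have 2 each. A GC box was found in 5 of the 8 windows (of Oat, Got1, Gls2, Gldc and Glud1), and in 30.5% of all 33469 windows of this length. The windows with a GC box held 56.8% to 78.8% G and C, and the other windows of these genes 45.6% to 58%. The median of all windows was 51.2%, and the part of base composition in the count was not tested. A CCAAT box was also found in 5 of the 8 windows, of every one of the 6 genes but Glud1, and in 34% of all windows. The genes with this box thus include Gldc and Agxt, whose intervals also spanned 0 and whose windows are not shown. Got1 held 6 CCAAT boxes, Oat 2 and the Gls2 window shown 1. The cyclic AMP response element TGACGTCA and the C/EBP motif TTGCNNAA, searched on both strands, and TATAAA, on the gene's strand, were in none of the 8 windows and in 1.59%, 9.22% and 8.06% of all windows. The shorter motif TGACG, part of that response element, was in 1 of the 8, the Gls2 window shown, and in 18.2% of all windows. TGTTCT, part of the glucocorticoid response element, was in 1, of Agxt, and in 17.5% of all windows, and the CACCC box CACCC was in 5 and in 49.2% of all windows, all on both strands. The motifs were chosen with the values known, and a match in these letters is not a binding site.

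Other genes of the same routes were read from 6 lists. Of 50 measured genes, 39 had a lower and 11 a higher mean with dairy than with casein, where 53.1% of all probe sets were lower, and the median was -0.22. Of these 9 were lower at an unadjusted p under 0.05, beside 6.32% of all probe sets, and 2 were higher, beside 4.59%. None passed limma's adjusted threshold. The single lists below hold 3 to 14 genes, so their counts are read against the same shares. With leucine against casein, 28 were lower and 22 higher, with a median of -0.07.

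The proline and glutamine list had 5 measured genes, 3 higher and 2 lower with dairy, none at an unadjusted p under 0.05. P4ha1, a prolyl hydroxylase subunit, differed by -0.49 ± 0.238 and Pycr1, a proline synthesis enzyme, by 0.38 ± 0.198 (SE). The proline synthesis enzymes Pycr3 and Aldh18a1 differed by 0.28 ± 0.297 and 0.12 ± 0.169 (SE). Prodh2, which oxidises hydroxyproline, differed by -0.17 ± 0.287 (SE), beside the -1.36 of Prodh. The histidine list had 3 measured genes (1 higher, 2 lower, none at that threshold). Hdc, which makes histamine from histidine, differed by 0.43 ± 0.231 and Hnmt, which inactivates histamine, by -0.11 ± 0.156 (SE). Ftcd, which ends histidine breakdown, differed by -0.23 ± 0.409 (SE), beside the -1.05 of Hal.

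In the serine, glycine and threonine list 13 of 14 measured genes were lower with dairy, 4 of them at an unadjusted p under 0.05. These 4 were Hao1, the peroxisomal glycolate oxidase (-0.54 ± 0.193 SE), and Dld, a subunit shared by the glycine cleavage system and the keto acid dehydrogenases (-0.93 ± 0.367 SE). The others were Shmt2, the mitochondrial serine hydroxymethyltransferase (-0.26 ± 0.117 SE), and Sdsl, a relative of Sds (-0.60 ± 0.274 SE). Their adjusted p in limma lay between 0.358 and 0.45. Shmt2 was also lower with leucine (-0.35 ± 0.117 SE, limma adjusted p = 0.999), with no overlap of either diet with casein. Both comparisons use the same casein arrays.

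The other aminotransferases went both ways: 7 of 10 were lower and 3 higher with dairy. Aadat, which acts on kynurenine and aminoadipate, differed by -0.83 ± 0.262 and Psat1, which makes serine, by 1.22 ± 0.397 (SE). Bcat2, for branched-chain amino acids, differed by 0.26 ± 0.122 and Abat, for GABA, by -0.66 ± 0.347 (SE). The mitochondrial partners of Gpt and Got1 differed less than they did: Gpt2 stood at -0.24 ± 0.274 and Got2 at -0.07 ± 0.158 (SE), a gap that was not tested. The tyrosine aminotransferase Tat, a classical target of glucocorticoids, differed by -0.15 ± 0.483 (SE).

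Of 8 measured carriers, 7 were lower with dairy, 2 of them at an unadjusted p under 0.05. The mitochondrial ornithine carrier Slc25a15 differed by -0.88 ± 0.366 and the glutamine carrier Slc38a3 by -0.43 ± 0.180 (SE), both without overlap with casein. The amino acid carriers Slc7a2 and Slc38a2 differed by -0.44 ± 0.247 and -0.44 ± 0.335 (SE). Of 10 regulators of amino acid breakdown, 8 were lower with dairy. The coactivator Ppargc1a, which fasting induces, differed by -1.10 ± 0.329 and the glucocorticoid receptor Nr3c1 by -0.65 ± 0.268, while Cebpa, a liver transcription factor, differed by 0.84 ± 0.280 (SE). Its relative Cebpb, which inflammation and fasting induce, differed by 0.68 ± 0.324 with dairy and by 0.84 ± 0.324 with leucine (SE). Klf15, known for driving amino acid breakdown genes, differed by -0.22 ± 0.412 with dairy (SE). Ppargc1a was dim, at 4.32, 4.47, 5.93 and 4.81 with casein and 3.80, 3.48, 3.78 and 4.07 with dairy (limma adjusted p = 0.295). Medians over all probe sets of an array lay between 4.43 and 4.62. Casein replicate 3, at 5.93, was the highest of the Ppargc1a values.

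**Figure D4:**
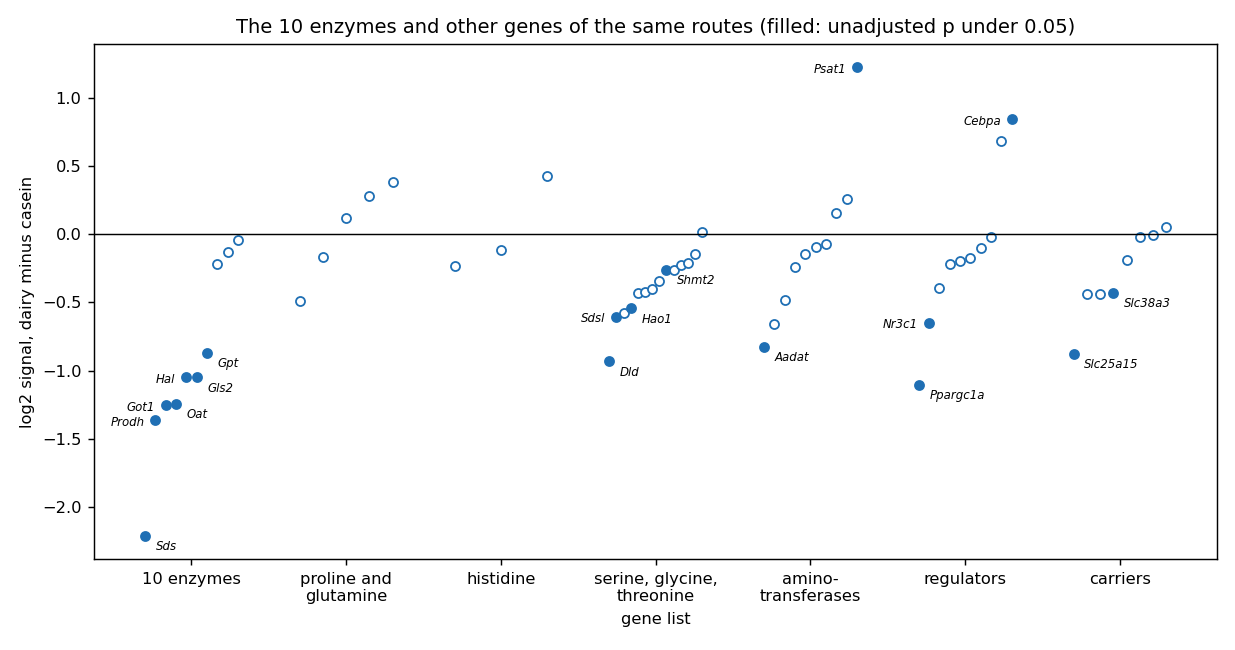
Difference in mean log2 signal between dairy and casein (vertical axis) for the 10 enzymes and for 50 other genes of the same routes in 6 lists; each point is a gene, filled and named where the unadjusted p was under 0.05. Sds (-2.21), Prodh (-1.36), Got1 (-1.25) and Oat (-1.24) lie below the lowest gene of the other lists (Ppargc1a, -1.10), and Psat1 (1.22) and Cebpa (0.84) stand above 0.

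Markers of hepatocyte position and of other cells were read on the same arrays. Over all probe sets, 53.1% were lower with dairy than with casein, and 56.2% were lower with leucine than with casein. At an unadjusted p under 0.05, 6.32% of all probe sets were called lower with dairy than with casein and 4.59% higher. All 8 periportal markers were lower with dairy than with casein (median -0.53), 4 of them at an unadjusted p under 0.05, and these 4 (Cps1, Ass1, Arg1 and Asl) are urea cycle enzymes. The mean signal of that list ran from 10.45 to 10.99 with casein, from 9.95 to 10.44 with dairy and from 10.00 to 10.95 with leucine. Of 7 pericentral markers 6 were lower with dairy (median -0.14), 1 of them, Cyp2e1, at that threshold. Of 12 hepatocyte markers 10 were lower (median -0.11), and their mean signal ran from 12.5 to 12.9 with casein and from 12.4 to 12.7 with dairy. All 11 neutrophil markers were higher with dairy (median 0.60), 1 of them at that threshold, with a mean signal of 3.91 to 5.92 with casein, 4.56 to 6.47 with dairy and 3.88 to 6.31 with leucine. With leucine against casein 10 of these 11 were higher too (median 0.49). Of the erythroid markers 5 of 6 were higher with dairy (median 0.14) and 6 of 6 with leucine (median 0.55). With dairy against casein, 7 of 9 stellate cell and fibrosis markers (median 0.36) and 6 of 6 skeletal muscle markers (median 0.16) were higher. Medians were -0.13 for Kupffer cells and macrophages (5 of 9 lower), -0.38 for endothelial cells (4 of 5 lower), and -0.08 for cholangiocytes (4 of 5 lower). They were 0.02 for lymphocytes (3 of 6 higher), 0.12 for pancreas (5 of 7 higher) and 0.08 for kidney (3 of 4 higher). No marker passed limma's adjusted threshold, and the part of these cells or positions in the enzyme differences was not tested.

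Over the 12 arrays, taken as deviations from the mean of their diet, 43 of the 45 pairs of enzymes had a positive Pearson correlation, as had 49.7% of all pairs of probe sets. The median was 0.50, and 22 pairs lay above 0.5, beside 14.5% of all pairs. Oat was near 0 with Prodh (0.05), Gpt (0.05) and Hal (0.04). After Benjamini-Hochberg adjustment over the 45 pairs, 2 passed an exact permutation test within diets, two-sided. No share of all pairs of probe sets passing this test is at hand, so the count is a description only. Gls2 and Hal had r = 0.85 (exact p = 1.88e-03, adjusted 0.0423) and Spearman's rho = 0.85 (exact p = 1.95e-03, adjusted 0.0439). Without the 2 arrays farthest from the median of Gls2 (dairy replicate 1 and leucine replicate 3) r was 0.74. Got1 and Agxt had r = 0.53 (exact p = 1.16e-03, adjusted 0.0423) and rho = 0.66 (exact p = 1.66e-03, adjusted 0.0439), with r = 0.67 without dairy replicate 2 and leucine replicate 3. Agxt hardly varied between the leucine arrays (SD 0.0572, beside 0.555 with casein and 0.532 with dairy), so its r rests mainly on the casein and dairy arrays. Got1 and Sds had the highest r, 0.87 (exact p = 0.0182, adjusted 0.136), with rho = 0.69 (exact p = 0.0318, adjusted 0.292). That relation leaned on dairy replicate 2 and leucine replicate 3, without which r was 0.60. Prodh and Gpt had r = 0.77 (exact p = 0.0125, adjusted 0.136) and rho = 0.59 (exact p = 0.0604, adjusted 0.292), with r = 0.62 without dairy replicate 1 and leucine replicate 2. All genes of an array share its RNA and its hybridisation, and 183 other probe sets were as close to Gls2 as Hal was, and 433 as close to Got1 as Agxt was.

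**Figure D5:**
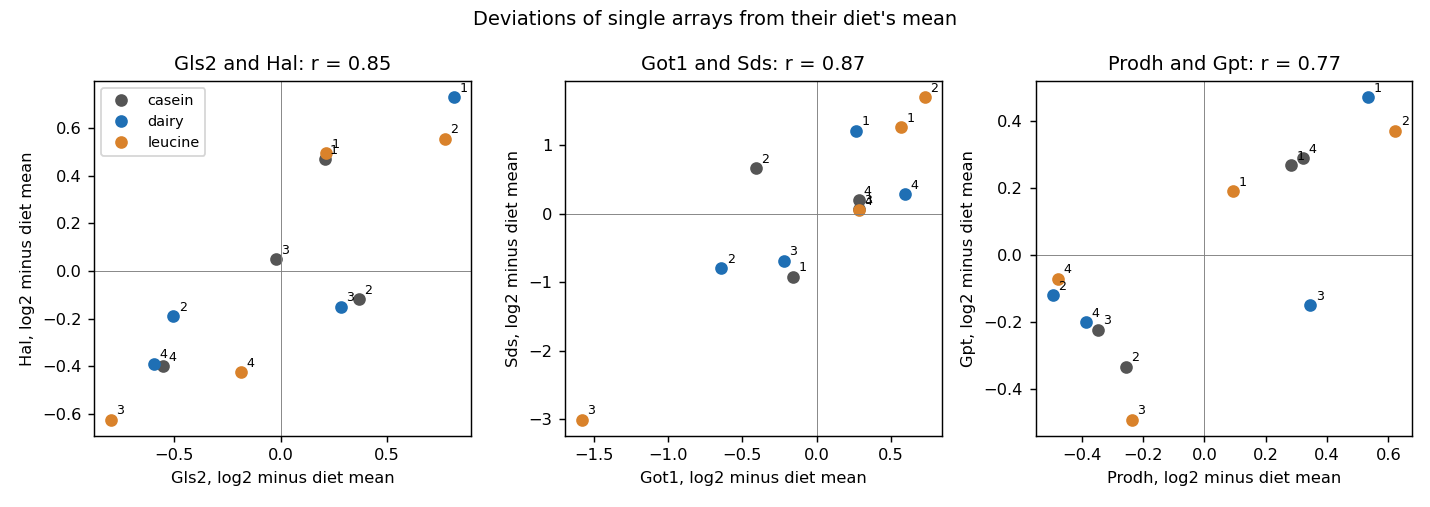
Deviations of single arrays from the mean of their diet (log2 units on both axes) for 3 pairs of enzymes, 12 arrays each, coloured by diet and labelled with the replicate number. Gls2 and Hal follow each other across all diets (r = 0.85), while leucine replicate 3 lies far from the other arrays for Got1 and Sds.

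By the same measure, the genes outside the 10 most like Got1 were Il6r (r = 0.93), Slc25a15 (0.91) and Ppm1d (0.91), and those most like Sds were Bcl2l14 (0.92), Ppm1d (0.92) and Slc25a15 (0.91). Hal was most like Dcaf8 (0.97), Gls2 like Dcaf5 (0.96), Prodh like Abhd15 (0.93), Gpt like Cdc26 (0.88) and Oat like Aplnr (0.90). Glud1 was most like Tbc1d2 (0.95), Agxt like Or52ae8b (0.95) and Gldc like Tfrc (0.91). Each is the highest correlation of an enzyme with any other gene over 12 arrays and is given as a description.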

How the data were processed

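Liver RNA of 12 samples was hybridised to Affymetrix Rat Gene 1.0 ST arrays, 1 per sample. The authors deposited 1 log2 signal per probe set and array, and the submitters' processing notes name Affymetrix Expression Console. Neither the algorithm and version used nor a genome build is stated in the sources. Columns did not share 1 distribution, so differences in spread between arrays remain, and log2 differences understate changes near background. Precision is limited by the 4 arrays per diet.

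Samples were grouped by the diet in their titles. Of 29214 probe sets, 15310 had 1 gene symbol in the platform annotation, 323 several and 13581 none. All 10 enzymes matched the RefSeq gene table by Entrez ID under the same symbol. limma 3.58.1 in R 4.3.3 (lmFit on 3 diet means over 12 arrays, eBayes) gave differences, two-sided p-values, Benjamini-Hochberg adjusted p-values over the 15310 probe sets, and 95% intervals, with 9 residual and 3.45 prior degrees of freedom. The threshold was 0.05. The moderated F test covered all 3 diets at once. A gene with several probe sets was read from the brightest.

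The enzymes and gene lists were chosen with earlier results of these data known. All 10 enzymes were named, with up to 4 genes per route list by the smallest p between dairy and casein, and for each enzyme up to 3 genes most like it. Others (Prodh2, Gpt2, Got2, Tat, Klf15) were named for their role, with values known. Alternatives were quantile normalization, median centring, all probe sets, leaving out the dimmest 25%, trend and robust eBayes, array weights, only the 8 arrays compared, the replicate number as a block, and leaving out arrays. On simulated data for dairy against casein over 15310 probe sets, the fit called 22 of 50 changes of 1 log2 unit and 47 of 50 of 2. The simulated noise was independent between probe sets and equal on all arrays. The real arrays differ in spread, so these counts need not hold for them. Arrays of casein and leucine with the same replicate number deviated together over all probe sets (4 correlations of 0.208 to 0.532). Arrays of different diets with other numbers had correlations of -0.599 to 0.645. The 4 correlations therefore cannot show whether the numbers pair these 2 diets, and the labels do not tie the numbers to a shared cage or day. The p-values of pairs came from 13824 permutations within diets.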

Additional observations from a re-analysis of the deposited data

Results flagged for a closer look

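For Gpt, dairy replicate 1 (7.95) stood apart from the other 3 dairy arrays, whose log2 signals lay between 7.28 and 7.36. It was the only such sample among 30 groups of 4 arrays tested with Dixon's criterion, where chance flags about 1 in 20 groups. Without dairy replicate 1 the difference of Gpt between dairy and casein was -1.02, in place of -0.87.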

How the results depend on the processing

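With 4 arrays per diet and wide spread between arrays, the counts of probe sets past the adjusted threshold depend on the settings. The cause was not tested. Between dairy and casein 13 passed as reported, 39 with quantile normalization, 42 with all probe sets, 8 with trend and robust eBayes, 1182 with array weights, 164 without dairy replicate 3 and casein replicate 4, and 6 with only the 8 arrays. Leaving out 1 array gave 3 (without casein replicate 1 or dairy replicate 1) to 237 (without casein replicate 4). Between leucine and casein none passed as reported, and leaving out 1 array gave 0 to 2 (without leucine replicate 2). In the F test 5 passed as reported, 0 with quantile normalization, 3 with median centring, 12 with all probe sets and 418 with array weights, and 0 to 23 when 1 array was left out (23 without casein replicate 4).

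Of the enzymes, 7 were lower with dairy than with casein at an unadjusted p under 0.05 as reported, beside 6.32% of all probe sets. Without the 2 narrow arrays 5 were, beside 9.82%, and without any 1 array 6 or 7 were, beside 3.03% to 12.4%. With array weights 7 were, beside 16.7%. Between dairy and leucine 6 were as reported, beside 3.65% of all probe sets, and 5 to 7 under the alternatives, beside 2.05% to 6.32%. Among the alternatives tried, the sign turned only for differences whose 95% interval spans 0. Agxt between dairy and casein was 0.0466 with quantile normalization, 0.12 with array weights and 0.27 without the narrow arrays, and -0.26 to 0.19 when 1 array was left out. Between dairy and leucine it was -0.32 to 0.0918. Between leucine and casein, Oat was 0.0316 with median centring, Gldc -0.0162 with array weights and Prodh 0.0063 without the narrow arrays. Leaving out 1 array there gave -0.31 to 0.0566 for Prodh, -0.18 to 0.16 for Oat, -0.15 to 0.62 for Got1, -0.45 to 0.0715 for Gls2, -0.26 to 1.31 for Sds, -0.13 to 0.30 for Agxt and -0.0461 to 0.17 for Gldc.

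With the replicate block, 19 probe sets passed between dairy and casein, 1 between dairy and leucine and 3 in the F test, and no enzyme passed the adjusted threshold. At an unadjusted p under 0.05 the block added Hal between leucine and casein and between dairy and leucine (log2 difference -0.53 ± 0.216 SE). For the comparisons with dairy, correlations between same-numbered arrays ran from -0.51 to 0.59, so whether those samples share more than a number is not known. Another probe set per enzyme could not be tried, since each has 1.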
